A study of Mus musculus with 9 samples.

Results

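The 38 Hox genes described here lie in 4 clusters of the mouse genome, 10 in the Hoxa cluster, 10 in Hoxb, 9 in Hoxc and 9 in Hoxd. They were taken by name from RefSeq, whatever their peaks were, and are 38 of the 17507 protein-coding genes whose start could be placed. Chromatin came from the thymus of C57BL/6J mice with a T-cell lymphoma driven by MYCN; the labels give no age, sex or allele of the MYCN model, and there is no untreated or normal group. ChIPmentation, in which a transposase adds the sequencing adapters to immunoprecipitated chromatin, was done with 7 antibodies, 1 library each, and the series also holds 2 input libraries that were not used here. The antibodies were against H3K27me3, SUZ12, EZH2, H3K4me3, H3K27ac, p300 and N-MYC, and each library is represented by the list of peaks that its authors called. With 1 library per antibody there is no spread between replicates, so every value below is a description of 1 list and no p-value is given.

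Hox genes encode homeodomain transcription factors that give cells of the embryo their position along the body axis. Genes of the same number in different clusters are paralogues, and low numbers are used towards the head and high numbers towards the tail. In cells that do not use them, the clusters are classical targets of Polycomb repressive complex 2: EZH2 is its enzyme, SUZ12 a core subunit, and H3K27me3 the histone mark it writes. H3K4me3 marks the starts of genes that are active or poised, H3K27ac marks active promoters and enhancers, p300 is an acetyltransferase found there, and N-MYC is the transcription factor made from Mycn. Several Hox genes act in blood stem cells and, when misexpressed, in leukaemia, and Hoxa3 is needed to form the thymus in the embryo.

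At the gene start, taken as the annotated start with 1 kb on either side, 37 of the 38 Hox genes had an H3K27me3 peak, against 23.9% of all protein-coding genes. SUZ12 was called at 36 Hox starts, against 12.3%, and EZH2 at 34, against 43.1%. All 3 lists had a peak at 34 Hox starts, against 11.3% of all genes. The lists of active chromatin were almost empty there: H3K4me3 was called at 2 Hox starts against 49.5%, H3K27ac at 1 against 49.8%, p300 at 0 against 38.3%, and N-MYC at 0 against 31.6%. The starts with active marks were those of Hoxb4, which had both H3K4me3 and H3K27ac, and of Hoxa13, which had H3K4me3 alone.

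**Figure D1:**
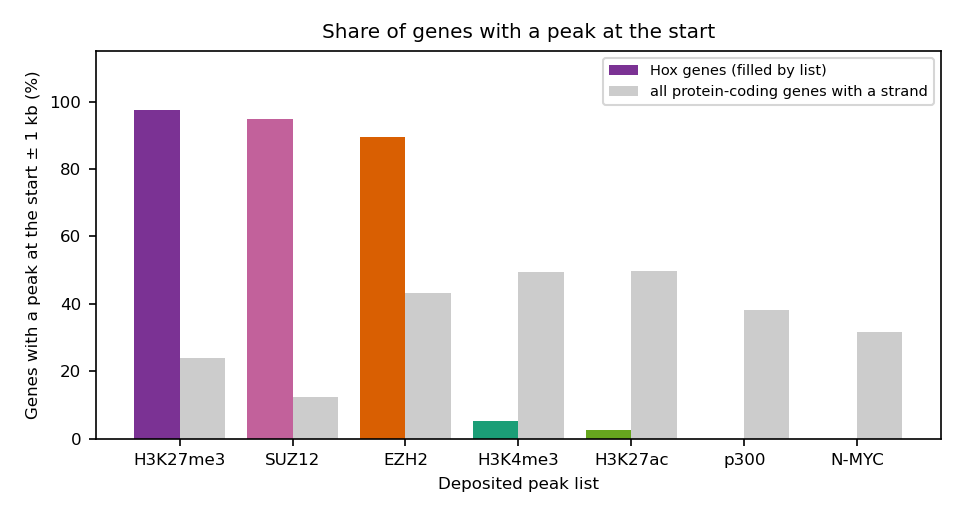
Percentage of genes with a peak at the start ± 1 kb (vertical axis) in each of the 7 deposited lists (horizontal axis), coloured bars for the 38 Hox genes and grey bars for all 17507 protein-coding genes with a strand. The Hox bars stand above the grey bars in the 3 Polycomb lists and below them in the other lists, with no bar at all for p300 and N-MYC.

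Counted over the gene body instead, H3K27me3 was called at 38 Hox genes against 29.1% of all genes, SUZ12 at 35 against 14.0%, and EZH2 at 35 against 46.9%. H3K4me3 then reached 5 Hox genes against 54.9%, and H3K27ac 4 against 58.4%. No Hox gene body held a p300 peak, against 43.2%, or an N-MYC peak, against 36.2%. The spans of Hoxa3, Hoxb3 and Hoxd3 in this annotation run from a distant start across neighbouring Hox genes, so a peak inside a neighbour is also counted for them.

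The EZH2 list also holds many starts without H3K27me3, which raises its background. Of 7486 genes with H3K4me3 and no H3K27me3 at the start, 5302 had an EZH2 peak (70.8%), with a median fold enrichment of 5.69. In the same class SUZ12 was called at only 18 genes. No Hox gene belonged to that class. Among genes with H3K27me3 at the start, EZH2 was called at 34 of 37 Hox genes against 53.6% of 4183 genes, and SUZ12 at 36 of 37 against 51.1%. In that same comparison H3K4me3 was called at 2 of 37 against 28.3%, and H3K27ac at 1 of 37 against 18.4%.

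Fold enrichment, the authors' ratio of signal to background at a peak's summit, was high at Hox starts, but neighbouring genes often share a single peak and therefore a single value. The 37 H3K27me3 calls came from 13 different peaks, of which 1 covered 9 starts; the 36 SUZ12 calls came from 22 peaks and the 34 EZH2 calls from 20. When the summit itself had to lie in the window, the order against all genes turned for 2 lists: H3K27me3 had 4 of 38 Hox starts (10.5%) against 15.9% of all genes, and EZH2 10 (26.3%) against 40.4%, while SUZ12 had 9 (23.7%) against 9.72%. Over the Hox genes called, the median H3K27me3 fold enrichment was 18.8, against 9.13 over the 4183 genes called in that list. For SUZ12 the medians were 13.7 and 5.75, and for EZH2 13.9 and 5.83. The peaks also filled the starts: the whole window was covered by H3K27me3 at 36 Hox genes, by SUZ12 at 28 and by EZH2 at 27, whereas 46.3%, 33.2% and 6.92% of the genes called in those lists had a fully covered window.

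**Figure D2:**
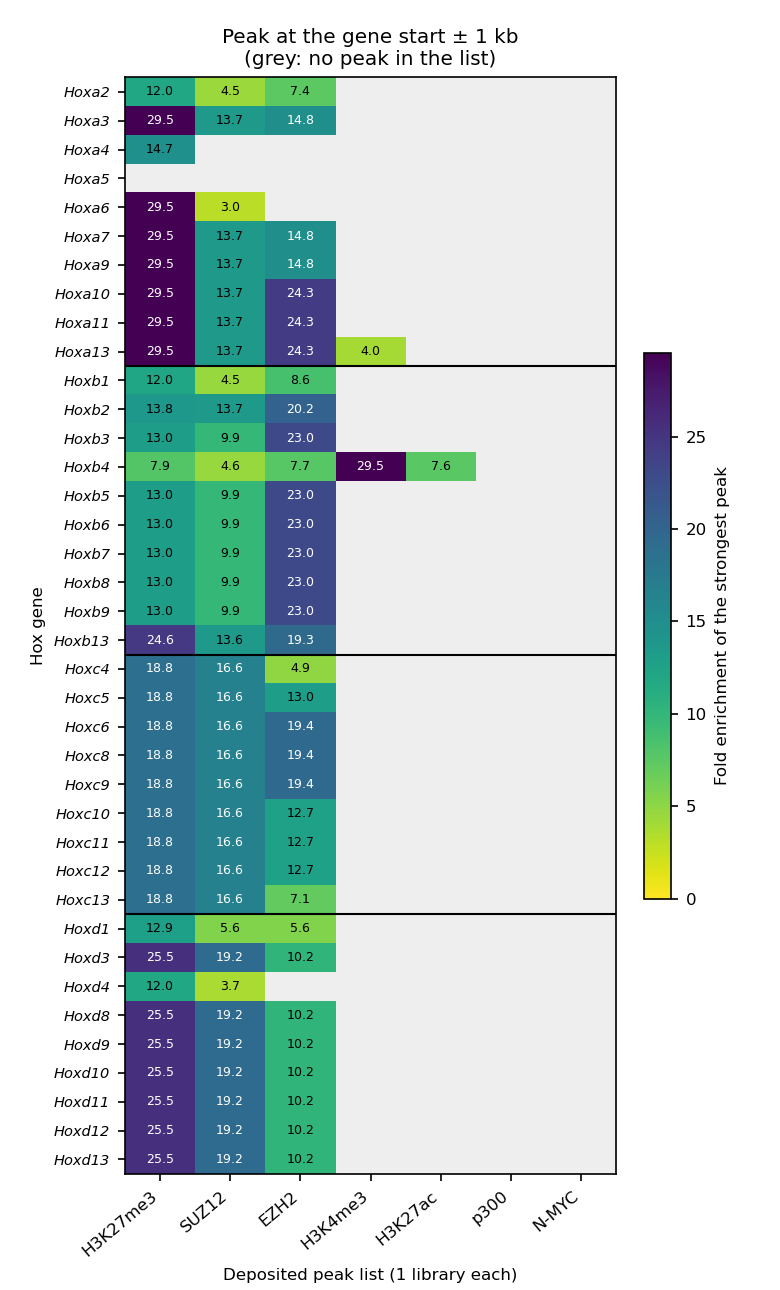
Fold enrichment of the strongest peak at the start ± 1 kb (colour and printed value) for each of the 38 Hox genes (rows, grouped by cluster) in each of the 7 lists (columns, 1 library each); grey cells have no peak. Runs of equal values are genes whose windows meet 1 shared peak. The 3 Polycomb columns are nearly full, and the other 4 columns hold only Hoxa13 with 3.97 for H3K4me3 and Hoxb4 with 29.5 for H3K4me3 and 7.58 for H3K27ac.

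The clusters were domains rather than series of separate promoter peaks. Between the outermost listed gene ends, H3K27me3 peaks covered 92.8% of the 485 kb in all 4 clusters, SUZ12 peaks 69.1% and EZH2 peaks 65.2%. H3K4me3 covered 1.49%, H3K27ac 1.37% and N-MYC 0.0412% of the same sequence, and p300 had no peak in any cluster. Base pairs under EZH2 were nearly all under SUZ12 as well, from 95.8% in Hoxb to 99.4% in Hoxa, and at least 99.3% of the EZH2 and SUZ12 stretches of every cluster lay under H3K27me3. The reverse did not hold: in Hoxa and Hoxb only 57.7% and 54.9% of the H3K27me3-covered sequence was under EZH2, against 96.5% in Hoxc and 73.5% in Hoxd. Positions are those of mm10/GRCm38.

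**Figure D3:**
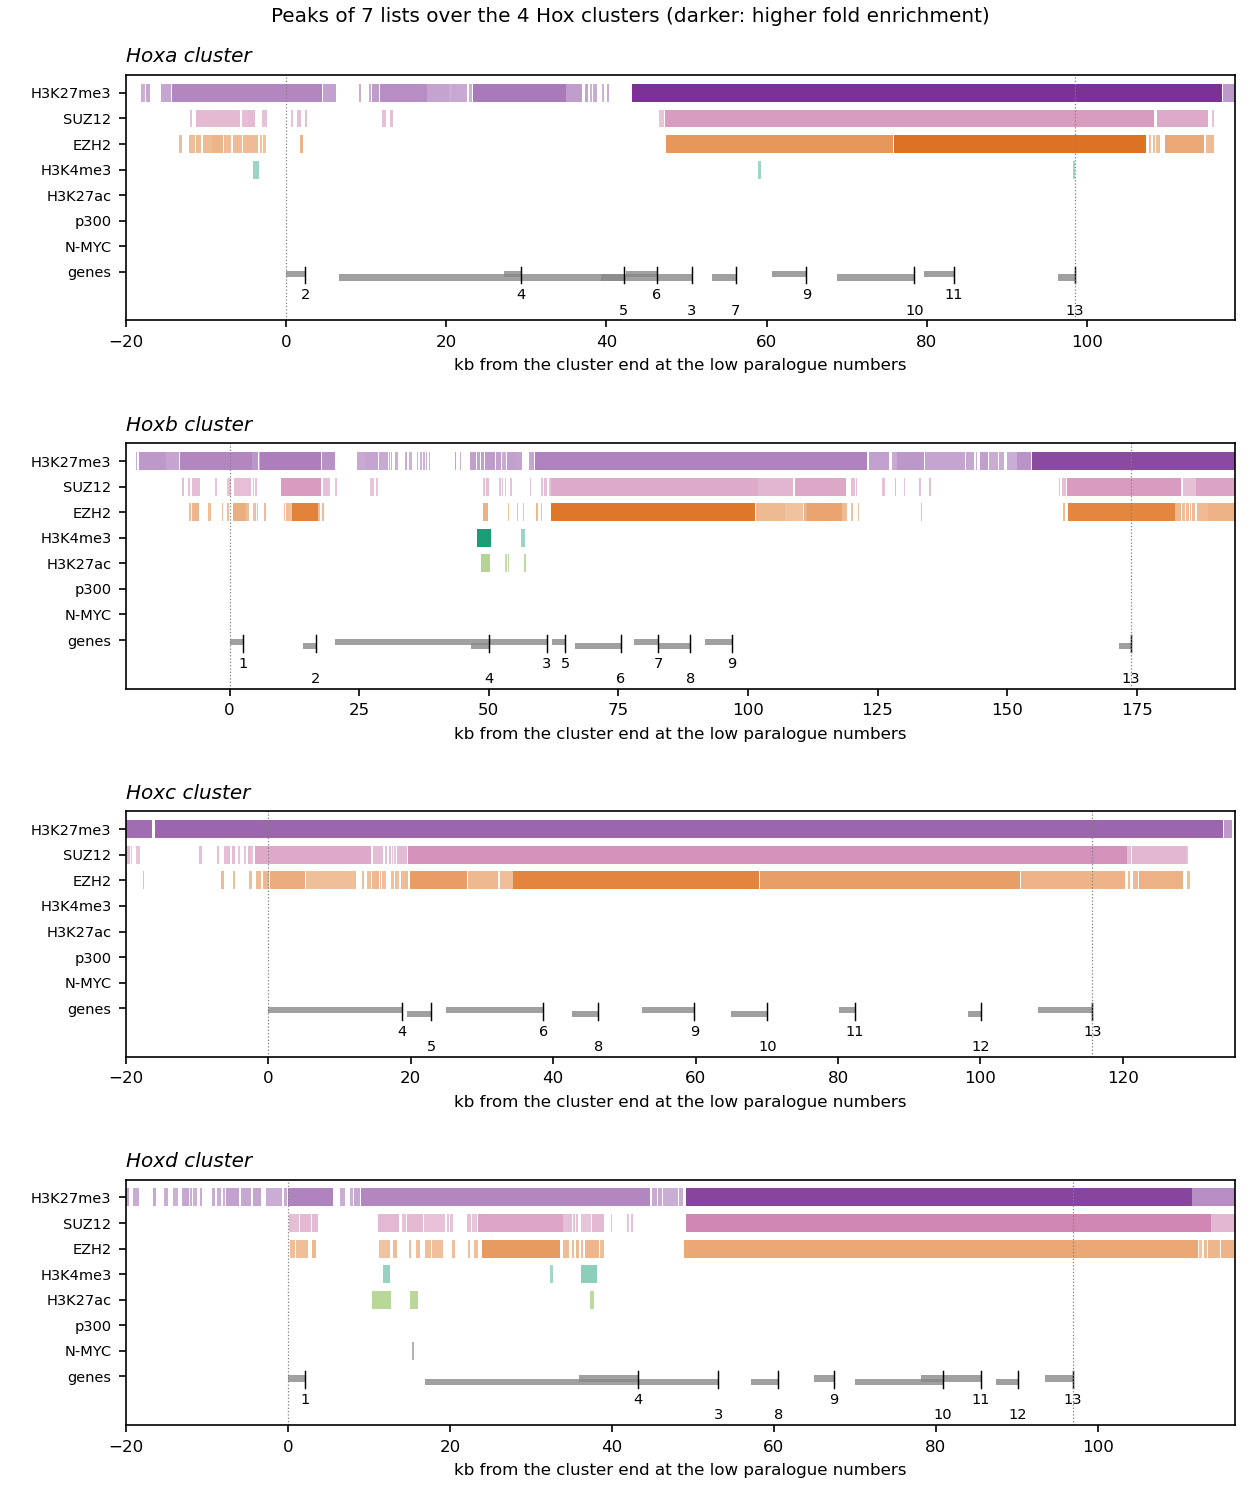
Peaks of the 7 lists (coloured boxes, darker for higher fold enrichment) along the Hoxa, Hoxb, Hoxc and Hoxd clusters, in kb from the cluster end that carries the low paralogue numbers, with 20 kb on either side. Grey bars are gene spans, black ticks gene starts and the digits paralogue numbers. H3K27me3 runs through all 4 clusters, SUZ12 and EZH2 leave gaps in the low-numbered parts of Hoxa, Hoxb and Hoxd and between Hoxb9 and Hoxb13, but none of 2 kb or more in Hoxc. The 7 H3K27ac peaks and 5 of the 7 H3K4me3 peaks are in Hoxb and Hoxd, and the other H3K4me3 peaks are in Hoxa.

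The Hoxc cluster (chr15:102921131-103036856, 115.7 kb) was the most evenly filled. H3K27me3 covered 100% of it, SUZ12 98.8% and EZH2 96.5%, where H3K27me3 covered 4.23% of chromosome 15 as a whole. A single H3K27me3 peak of 149987 bp with a fold enrichment of 18.8 held all 9 starts, and it was the widest of the 123056 peaks of its list. A single SUZ12 peak of 100916 bp with a fold of 16.6 held 8 starts and was the widest of 11100. EZH2 was divided among more peaks, and its fold differed along the cluster. Hoxc6, Hoxc8 and Hoxc9, which act in the thoracic region, shared an EZH2 peak with a fold of 19.4, the highest of the cluster. Hoxc5 had 13.0, Hoxc10, Hoxc11 and Hoxc12 shared 12.7, and Hoxc13, known from hair follicles, had 7.07. Hoxc4 at the low-numbered end had the lowest value at the start, 4.89, while over its gene body EZH2 reached 8.91. The 19.4 and 12.7 were measured at summits that lay in no Hoxc start window. No peak of H3K4me3, H3K27ac, p300 or N-MYC lay anywhere in Hoxc, and Hotair, the long non-coding RNA of the cluster, had H3K27me3, SUZ12 and EZH2 at 18.8, 16.6 and 12.7.

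In the Hoxd cluster (chr2:74668225-74765142, 96.9 kb), H3K27me3 covered 97.3%, SUZ12 78.2% and EZH2 71.8%, and H3K27me3 covered 6.46% of chromosome 2. The 7 genes Hoxd3 and Hoxd8 to Hoxd13, which include the limb and genital patterning genes of this cluster, lay under the same peak in each list. Their shared values were 25.5 for H3K27me3 over 62434 bp, 19.2 for SUZ12 over 64780 bp and 10.2 for EZH2 over 63438 bp. That EZH2 peak was the widest of the 18730 in its list, but its fold was lower than that of the widest EZH2 peak in each other cluster. Hoxd1, at the far low-numbered end, had 12.9, 5.56 and 5.63 from separate short peaks, the lowest EZH2 value of the cluster. Hoxd4 had H3K27me3 at 12.0 across its whole start window and a 227 bp SUZ12 peak of 3.74 that covered 11.3% of the window. Its nearest EZH2 peak was 4191 bp from the start, and over the gene body EZH2 reached 6.47.

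The Hoxa cluster (chr6:52162417-52260880, 98.5 kb) was divided into a full and a sparse part. H3K27me3 covered 90.3%, SUZ12 54.7% and EZH2 52.1%, and H3K27me3 covered 4.16% of chromosome 6. One H3K27me3 peak of 73737 bp held the starts of Hoxa3, Hoxa6, Hoxa7, Hoxa9, Hoxa10, Hoxa11 and Hoxa13, and its fold of 29.5 was the second highest of its list. The highest, 31.6, was at Evx1, the homeobox gene next to Hoxa13. EZH2 reached 24.3 in a peak shared by Hoxa10, Hoxa11 and Hoxa13 and 14.8 in the adjoining peak shared by Hoxa3, Hoxa7 and Hoxa9, while SUZ12 was 13.7 at all 6. Hoxa9 and Hoxa10, the members best known from acute leukaemia, were thus under this H3K27me3 peak with SUZ12 and EZH2. So was the annotated start of Hoxa3, which lies between those of Hoxa6 and Hoxa7. Over the Hoxa3 gene body, SUZ12 covered only 11.4% and EZH2 7.18%, with H3K27me3 at 79.5%. The 29.5 was measured at the summit, which was in none of these start windows.

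Towards the low-numbered end of Hoxa, EZH2 had no peak for 45.3 kb, a stretch with the starts of Hoxa2, Hoxa4, Hoxa5 and Hoxa6, and SUZ12 had none for 33.2 kb, with the starts of Hoxa4, Hoxa5 and Hoxa6. Hoxa2, which patterns the branchial arches, had an EZH2 peak of 407 bp 270 bp inside the gene, with a fold of 7.41, the lowest of those called in Hoxa, beside H3K27me3 at 12.0 and SUZ12 at 4.48. Hoxa4 had H3K27me3 at 14.7 over its whole start window, but its nearest SUZ12 and EZH2 peaks were 15890 and 18203 bp away. Hoxa6 lay under the 29.5-fold H3K27me3 peak, had a SUZ12 peak of 650 bp and a fold of 3.02 that began 292 bp from its start, and had its nearest EZH2 peak 1234 bp away. Hoxa5, a gene with roles in lung and skeletal patterning, was the single Hox gene with no peak of any list at its start: it lay in a gap of 2856 bp in H3K27me3. That call is close to the limit of the window, since the nearest H3K27me3 peak was 1020 bp from the start; the nearest SUZ12 and EZH2 peaks were 4377 and 5319 bp away. No active mark filled the gap.

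The Hoxb cluster (chr11:96194316-96368254) is the longest at 173.9 kb because Hoxb13 lies far from Hoxb9. H3K27me3 covered 86.9%, SUZ12 52.5% and EZH2 48.1%, against 9.53% for H3K27me3 on chromosome 11. The central genes Hoxb5 to Hoxb9 had H3K27me3 at 13.0, SUZ12 at 9.90 and EZH2 at 23.0, the highest EZH2 value of this cluster. Hoxb13, which acts in the tail and the prostate, stood in a separate block with 24.6, 13.6 and 19.3. Hoxb2 had 13.8, 13.7 and 20.2, and Hoxb1, a hindbrain gene, had 12.0, 4.55 and 8.64. Hoxb3, whose annotated start follows shortly after Hoxb5, was under the same H3K27me3 peak but at the edge of the SUZ12 and EZH2 blocks. The 9.90-fold SUZ12 peak and the 23.0-fold EZH2 peak reached its window but ended before its start. Its start was 785 bp from the nearest EZH2 peak, and EZH2 covered 19.5% of the window, while 4 SUZ12 peaks covered 74.0%. Between Hoxb13 and Hoxb9, which holds no other Hox gene of the list, EZH2 had gaps of 27.1 and 11.8 kb and the longest SUZ12 gap was 24.7 kb. A further EZH2 gap, of 30.6 kb, began just inside Hoxb4 and ran through the distal part of the Hoxb3 span without another Hox start.

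Hoxb4, known for expanding blood stem cells when overexpressed, differed from all other Hox genes in these lists. It had an H3K4me3 peak at chr11:96317875-96320554 (2680 bp) with a fold of 29.5, slightly above the median of 26.6 over the 8671 genes called, and this peak covered 69.6% of the start window. The H3K27ac peak there was 1737 bp wide with a fold of 7.58, below the median of 12.4 over 8718 genes, and covered 62.6% of the window. Polycomb peaks were also present. H3K27me3 was 7.88, the lowest of the 37 called and below the median of 9.13 over all genes called. SUZ12 was 4.61, below its median of 5.75. EZH2 was 7.69, the lowest of Hoxb but above its median of 5.83. H3K27me3 still covered 86.2% of the H3K4me3 peak, while SUZ12 covered 37.7% and EZH2 34.9% of it. Neither p300 nor N-MYC was called. Peak lists from a bulk sample do not show whether active and Polycomb marks were on the same alleles or in the same cells, and this was not tested.

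Hoxa13, a limb and urogenital gene at the other extreme of its cluster, had an H3K4me3 peak of 210 bp with a fold of 3.97, well under the median of called genes. It covered 10.5% of the start window and lay wholly under H3K27me3 at 29.5, SUZ12 at 13.7 and EZH2 at 24.3. The call was absent at a q-value of 1e-05, where Hoxb4 was the remaining H3K4me3 start. The promoters of 4 contrasting genes follow from RefSeq GRCm38.p6, each 250 bases before to 50 after the start, with CpG dinucleotides, the sites of DNA methylation and the feature that marks CpG islands, in capitals. Hoxb4 (chr11:96318017-96318316, plus strand) is the start with active marks, Hoxa13 (chr6:52260831-52261130, minus strand) the start with a weak H3K4me3 peak under all 3 Polycomb lists, Hoxa5 (chr6:52204538-52204837, minus strand) the start without a call, and Hoxd4 (chr2:74721728-74722027, plus strand) the start with H3K27me3 but no EZH2.
Hoxb4: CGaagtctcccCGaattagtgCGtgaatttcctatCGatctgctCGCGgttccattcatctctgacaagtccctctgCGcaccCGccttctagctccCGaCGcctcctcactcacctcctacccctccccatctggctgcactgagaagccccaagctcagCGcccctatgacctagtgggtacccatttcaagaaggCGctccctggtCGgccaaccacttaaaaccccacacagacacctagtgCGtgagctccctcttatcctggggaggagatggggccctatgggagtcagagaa
Hoxa13: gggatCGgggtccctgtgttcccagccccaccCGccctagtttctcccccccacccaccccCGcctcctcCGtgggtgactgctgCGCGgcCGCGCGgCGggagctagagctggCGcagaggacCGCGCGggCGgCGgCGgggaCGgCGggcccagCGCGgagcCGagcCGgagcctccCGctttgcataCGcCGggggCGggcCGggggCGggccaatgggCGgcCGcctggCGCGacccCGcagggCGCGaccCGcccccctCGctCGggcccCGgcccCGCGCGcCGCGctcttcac
Hoxa5: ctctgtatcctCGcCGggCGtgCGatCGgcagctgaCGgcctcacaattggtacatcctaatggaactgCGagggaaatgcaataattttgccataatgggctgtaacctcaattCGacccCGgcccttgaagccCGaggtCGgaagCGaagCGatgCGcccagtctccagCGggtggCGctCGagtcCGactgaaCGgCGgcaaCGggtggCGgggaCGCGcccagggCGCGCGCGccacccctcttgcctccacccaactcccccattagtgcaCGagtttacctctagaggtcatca
Hoxd4: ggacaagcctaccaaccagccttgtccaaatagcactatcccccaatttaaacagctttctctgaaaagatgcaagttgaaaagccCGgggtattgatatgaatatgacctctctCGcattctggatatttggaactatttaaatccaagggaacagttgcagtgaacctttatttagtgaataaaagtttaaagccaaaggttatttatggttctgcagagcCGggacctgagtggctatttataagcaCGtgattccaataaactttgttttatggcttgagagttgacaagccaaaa
These 4 windows hold 14, 45, 29 and 4 CpGs in that order, so the start with the strongest H3K4me3 was not the one richest in CpG.

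The promoter table held 22 of the 38 Hox genes: 9 of Hoxa, 3 of Hoxb, 1 of Hoxc and all 9 of Hoxd. For 3 of them, Hoxb8, Hoxc4 and Hoxd10, its start was over 1 kb from the one used for peak calls. Their windows had a median of 13.5 CpGs and a GC content of 56.8%, against 13 and 56.3% over 17491 protein-coding promoters, and ranged from 4 CpGs at Hoxa9, Hoxd4 and Hoxd11 to 45 at Hoxa13. The canonical E-box CACGTG, the motif that MYC proteins bind with MAX and which reads the same on both strands, was found in 4 of the 22 windows (18.2%), against 7.91% of all promoters. They were at Hoxd1, Hoxd4, Hoxd10 and Hoxd13, in a table that holds few Hoxb and Hoxc genes, and in Hoxd4 the motif begins 2 bases before the start. Over all genes, N-MYC was called at the start of 51.2% of those with CACGTG in this window and 30.0% of those without. None of the 4 Hox genes with the motif had an N-MYC call, at the start used here or at that of the promoter table, which for Hoxd10 is 7618 bp away.

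The paralogue number went with how fully PRC2 covered a start. All 16 genes of numbers 9 to 13 had H3K27me3, SUZ12 and EZH2 over 100% of their start windows. Of the 11 genes of numbers 5 to 8, 10 had H3K27me3, 10 SUZ12 and 9 EZH2; those without EZH2 were Hoxa5 and Hoxa6. Of the 11 genes of numbers 1 to 4, all had H3K27me3, 10 had SUZ12 and 9 had EZH2, and their median EZH2 coverage of the window was 75.6%, with SUZ12 at 83.5%. The median EZH2 fold did not follow the same order, with 8.64 for numbers 1 to 4, 19.4 for 5 to 8 and 12.7 for 9 to 13. Because neighbours share peaks, these genes are not independent points, and the order was not tested.

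**Figure D4:**
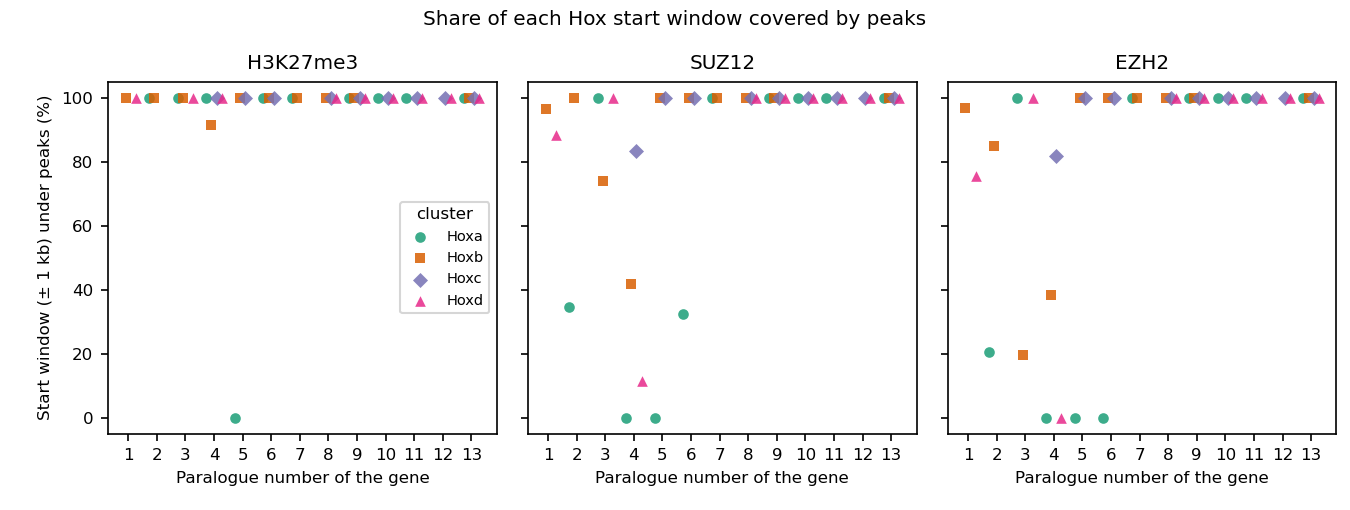
Percentage of the start ± 1 kb window that lies under H3K27me3, SUZ12 and EZH2 peaks (panels) against the paralogue number of each of the 38 Hox genes; marker shape and colour give the cluster. Points of numbers 9 to 13 all sit at 100% in the 3 panels, and the points below 100% are of numbers 1 to 6.

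Paralogues with a copy in all 4 clusters show how values differed between clusters for genes of the same number. At number 13, H3K27me3 was 29.5 at Hoxa13, 24.6 at Hoxb13, 18.8 at Hoxc13 and 25.5 at Hoxd13, and all 4 genes had SUZ12, from 13.6 to 19.2. EZH2 at the same genes was 24.3, 19.3, 7.07 and 10.2, so the EZH2 values of Hoxa13 and Hoxb13 were above those of Hoxc13 and Hoxd13. At number 9, H3K27me3 was 29.5, 13.0, 18.8 and 25.5 at Hoxa9, Hoxb9, Hoxc9 and Hoxd9. EZH2 at these 4 was 14.8, 23.0, 19.4 and 10.2, with Hoxb9 highest for EZH2 and lowest for H3K27me3. The H3K27me3 values 29.5, 18.8 and 25.5 and the EZH2 value 10.2 come from the same peaks at numbers 13 and 9. Each value given for these 2 numbers was measured at a peak's summit. That summit lay in the gene's start window only for EZH2 at Hoxc13, Hoxb9 and Hoxd9. At the starts used, number 4 was the most varied of these numbers: Hoxa4 had H3K27me3 alone at 14.7, and Hoxb4 had both kinds of mark with H3K27me3 at 7.88. Hoxc4 had H3K27me3 at 18.8 and EZH2 at 4.89, and its start was under a 1430 bp SUZ12 peak of 5.34. The 16.6-fold SUZ12 peak only reached the edge of the Hoxc4 window. Hoxd4 had H3K27me3 at 12.0 and SUZ12 at 3.74. Gene bodies gave other values: SUZ12 and EZH2 reached 10.1 and 8.91 over Hoxc4, and 5.96 and 6.47 over Hoxd4. Neither had a peak over the Hoxa4 body. For Hoxc4 the promoter table also places the start 16298 bp away. These values come from different places in the same libraries, and with no replicate none of the differences has an error.

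Few active peaks were found inside the clusters. The H3K4me3 list had 7, of which 5 lay away from Hox starts, and the H3K27ac list 7, of which 6 did. In Hoxb, besides the pair at Hoxb4, a 794 bp H3K4me3 peak with a fold of 6.09 and 3 H3K27ac peaks with folds from 3.60 to 4.96 lay upstream of it in the Hoxb3 span. In Hoxd, H3K4me3 was found inside the Hoxd4 gene at chr2:74726981-74728901 with a fold of 8.64, further along the Hoxd3 span with 4.63, and between Hoxd3 and Hoxd1 with 6.67. H3K27ac accompanied the first of these with 4.86 and the last with 6.24. The remaining H3K27ac peak of Hoxd, with a fold of 6.36, held the only N-MYC peak of the 4 clusters, at chr2:74749580-74749779, which was 200 bp wide with a fold of 2.94 and ranked 9645 of 9798 by fold. All H3K4me3 and H3K27ac peaks of Hoxd lay wholly under H3K27me3. In Hoxa the other H3K4me3 peak, 416 bp with a fold of 4.94, lay between Hoxa7 and Hoxa9, and there was no H3K27ac.

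The H3K4me3 peaks at Hoxb4 and in Hoxd4 were next to the 2 genes of the miR-10 family, which lie in equivalent places in Hoxb and Hoxd. Mir10a (chr11:96317165-96317274) ended 601 bp before the 29.5-fold peak at Hoxb4, and Mir10b (chr2:74726070-74726137) ended 844 bp before the 8.64-fold peak in Hoxd4. The mature 5′ miRNAs are given from RefSeq with their seed, bases 2 to 8, in capitals, because the seed is the same in both.
mmu-miR-10a-5p: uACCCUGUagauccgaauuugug
mmu-miR-10b-5p: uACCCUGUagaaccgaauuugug
The Mir10a hairpin was under H3K27me3 at 7.88 with no SUZ12 or EZH2 peak, and the Mir10b hairpin under H3K27me3 at 12.0 and SUZ12 at 5.96 with no EZH2 peak. Neither hairpin was itself under H3K4me3. The miR-196 hairpins, which lie among higher paralogue numbers, were inside the Polycomb domain in all 3 lists: Mir196b had H3K27me3 at 29.5 and EZH2 at 14.8, Mir196a-1 13.0 and 5.54, and Mir196a-2 18.8 and 19.4.

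**Figure D5:**
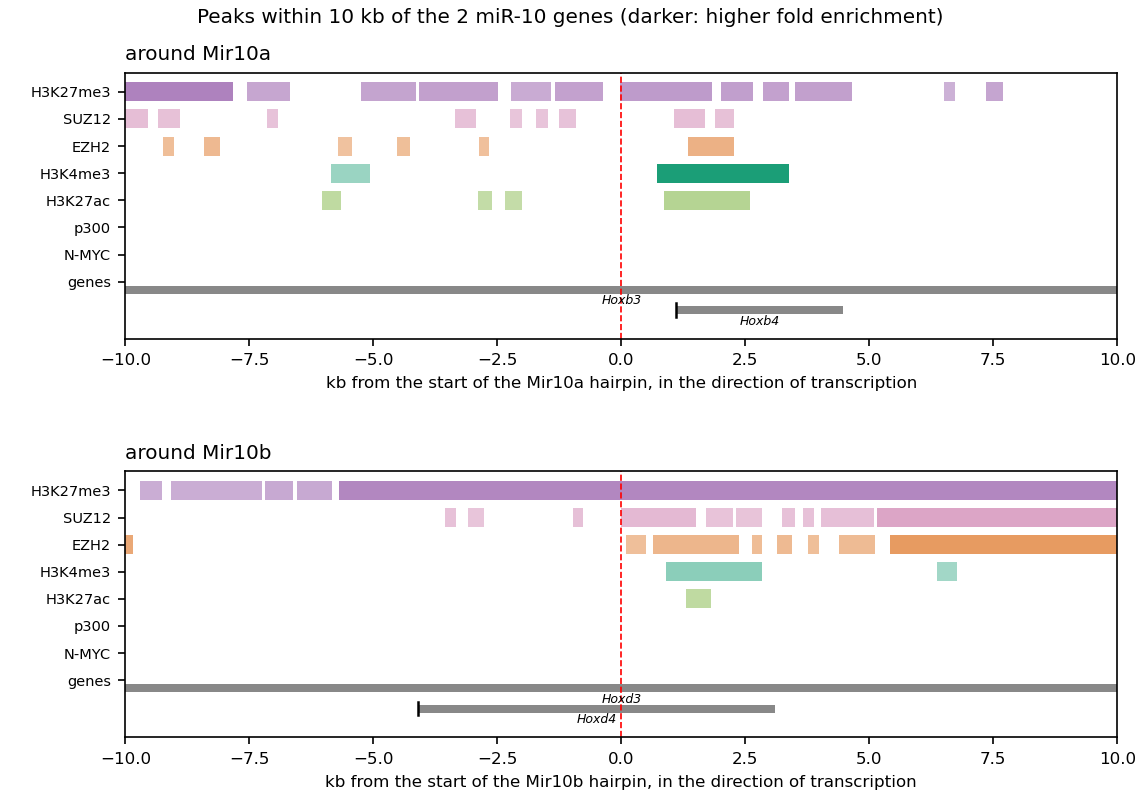
Peaks of the 7 lists (coloured boxes, darker for higher fold enrichment) within 10 kb of the start of the Mir10a and Mir10b hairpins (dashed lines), in kb along the direction of transcription; grey bars are Hox gene spans and black ticks their starts. In both panels an H3K4me3 peak with H3K27ac begins within 1 kb downstream of the hairpin, at the start of Hoxb4 and in the body of Hoxd4.

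The Polycomb domains extended beyond the outermost Hox genes. When H3K27me3 peaks less than 3 kb apart were joined, the runs that reached into the clusters spanned 197 kb at Hoxa, 289 kb at Hoxc and 193 kb at Hoxd, and 306 kb in 3 runs at Hoxb. Of 25 further genes inside or beside the clusters, 17 had H3K27me3 (23.9% of all genes), 16 SUZ12 (12.3%) and 22 EZH2 (43.1%) at the start or, without a known strand, at either end. The miRNA and long non-coding RNA genes among them had the same H3K27me3 values as Hox genes of their clusters. These counts therefore do not measure extension beyond the clusters. Of the protein-coding genes among them, Evx1, Evx2, Skap2, Snx10, Ttll6, Calcoco2 and Smug1 had H3K27me3. Hibadh, Skap1, Cbx5, Calcoco1, Hnrnpa1, Mtx2, Lnpk and Atf2 did not. The active lists were near the share over all genes, with 13 for H3K4me3 (49.5%), 11 for H3K27ac (49.8%), 9 for p300 (38.3%) and 8 for N-MYC (31.6%). Evx2, next to Hoxd13, shared the Hoxd13 peaks with 25.5 for H3K27me3, 19.2 for SUZ12 and 10.2 for EZH2. The nearest N-MYC peaks outside lay 89.1 and 60.6 kb from the Hoxd cluster, at the starts of Lnpk (fold 4.47) and Mtx2 (4.14). Around Hoxa they lay 149 and 379 kb away, at Skap2 (7.47) and Hibadh (6.85), around Hoxb 118 and 421 kb and around Hoxc 174 and 132 kb. Lnpk, Mtx2, Skap2 and Hibadh all had H3K4me3 at their starts, with folds of 25.4, 28.2, 28.6 and 32.4, so that these starts with H3K4me3 stood at both sides of Hoxa and Hoxd. Skap2 also had H3K27me3, at 5.07.

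Genes that work with or on the Hox genes were a mixed group. Of 16 cofactors and regulators, 9 had H3K27me3 at the start (23.9% of all genes), 5 SUZ12 (12.3%) and 12 EZH2 (43.1%). In the active lists, 9 had H3K4me3 (49.5%), 9 H3K27ac (49.8%), 7 p300 (38.3%) and 5 N-MYC (31.6%), which is near the share over all genes in each of them. Genes without a known strand were read at either end here, which the share over all genes was not. Meis1 and Meis2, homeodomain partners of HOX proteins, had H3K27me3 at 15.5 and 19.2 and EZH2 at 10.8 and 11.9 with no active list, and so did Cdx2, a regulator of Hox genes in the embryo, at 21.1 and 8.23. Kmt2a and Dot1l, histone methyltransferases that maintain Hox transcription in leukaemia, had H3K4me3 at 45.8 and 40.4 and N-MYC at 7.36 and 7.14, with EZH2 at 7.37 and 8.48 and neither SUZ12 nor H3K27me3. Of 19 genes for PRC2 and PRC1 subunits, 18 had H3K4me3 (49.5% of all genes), 18 H3K27ac (49.8%), 18 p300 (38.3%), 17 N-MYC (31.6%) and 15 EZH2 (43.1%). H3K27me3 was at 6 of them (23.9%) and SUZ12 at 4 (12.3%), among them Bmi1 with 9.96 and 16.5 and Cbx8 with 16.2 and 18.4. Ezh2 itself had N-MYC at 13.2, and Suz12 had 10.2.

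As a check of the labelled tissue, all 8 T-cell markers (such as Cd3e, Lck and Bcl11b) had H3K4me3 and H3K27ac at the start. H3K4me3 was called at 1 of 4 B-cell, 0 of 4 myeloid, 1 of 2 erythroid, 0 of 5 thymic epithelial, 0 of 4 fibroblast and 0 of 3 endothelial markers, and H3K27ac at 2, 3, 2, 1, 1 and 1 of them. What other cells of the thymus contributed to the Hoxb4 peaks was not tested. The lists held from 9798 peaks for N-MYC to 123056 for H3K27me3, and the number of reads behind them is unknown.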

How the data were processed

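Peak lists of 7 ChIPmentation libraries from mouse thymic lymphoma cells were used, 1 per antibody. The submitters' processing notes name FastQC, Bowtie2, SAMtools, MACS2 and deepTools and the builds mm10 and GRCm38, without versions; how the input libraries were used, from which animal each library came and whether libraries were pooled are not given in the sources used here. Fold enrichment is a linear ratio and was used as deposited by the authors. Significance was deposited as −log10 of the p-value and of the q-value, and the smallest −log10 q was 2.00 to 2.08 in the 7 lists, so a missing peak means only that none was called. The files have no header, so these columns were identified from their layout and values. No read depth is known, and precision could not be computed.

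Gene positions came from RefSeq GRCm38.p6. The strand of 22 Hox genes came from the promoter table; that of the other 16 was taken from the genes of the same cluster. A gene was called when a peak overlapped its start ± 1 kb, or its body, by at least 1 bp. The background was all 17507 protein-coding genes with a strand, the Hox genes included. Full values are given for Hox genes with H3K4me3, H3K27ac, p300 or N-MYC at the start, for those with the highest and lowest EZH2 fold of each cluster, and for those without H3K27me3, SUZ12 or EZH2 there; the other Hox genes given with values were named after their values were seen. The members, gene lists and rules were chosen with earlier results of these data known. Alternatives changed the window, overlap, threshold, list length and cluster limits, and the starts of the promoter table were added after seeing the data. The overlap step was tested on simulated data. Python 3.11.15, pandas 2.3.3, numpy 2.4.6 and matplotlib 3.10.9 were used.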

Additional observations from a re-analysis of the deposited data

How the results depend on the processing

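The results were recomputed under 90 alternatives, and 78 stayed within 1.5 times the reported value. Part of this was fixed in advance. The Polycomb counts and the cluster coverages were too near their maximum to rise 1.5 times, and counts of 0 could not fall. With the peak summit required inside the window, the Hox genes called fell to 4 for H3K27me3, 9 for SUZ12 and 10 for EZH2, which put H3K27me3 and EZH2 below the shares of all genes under that setting, 15.9% and 40.4%, and left SUZ12 above its 9.72%; wide peaks have 1 summit for many starts. H3K4me3 was called at 4 Hox starts with a window of 5 kb, against 53.2% of all genes, and at 5 genes over the whole gene body, against 54.9%. It was called at 1 with a q-value of at most 1e-05 (49.0% of all genes) or a fold enrichment of at least 4 (48.8%). With every list limited to its 9798 most significant peaks it was also called at 1 (43.7%). H3K27ac was called at 2 with a window of 5 kb (54.6% of all genes) and at 4 over the gene body (58.4%). It was called at 2 at either end of the gene (53.1%), and at 0 with lists of equal length (33.9%). N-MYC and p300 stayed at 0 under every alternative run for them. The shares of all genes, where computed, ran from 28.5% to 36.2% for N-MYC and from 32.4% to 43.2% for p300. The H3K27me3 coverage of each cluster stayed within 1.5 times. No paired analysis was possible because no antibody has a second library and the result comes from no test. The read depth behind the lists is unknown, so a missing call sets no upper limit, and antibody, library and animal cannot be told apart.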
